A study of Mus musculus with 95 samples.

Results

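The genes for collagen chains were examined in 4 mouse tissues: cortex, kidney, liver and white fat (WAT, white adipose tissue). They were taken as the rows of the deposited count table whose symbol was Col, a number, a and a number, and 44 of 55401 genes met this rule. They comprised 11 fibrillar chains, 6 basement membrane chains (type IV), 2 multiplexins (types XV and XVIII), 6 beaded filament chains (type VI), 2 chains of types VII and XXVIII, 3 network-forming chains (types VIII and X), 10 fibril-associated chains with interrupted helices and their relatives (FACIT and FACIT-like) and 4 transmembrane chains. All animals were C57BL/6J mice, an inbred laboratory strain. Mice of the first group, labelled Stim and called TLS here, had spent 3 months with a torpor-like state, a condition of lowered metabolism and body temperature. Control mice were taken after the same 3 months and time-0 mice at the start. The ages recorded with the counts were 205 days in the TLS and control groups and 122 days in the time-0 group, so that age and months on study cannot be told apart. The labels used here name no allele, agent or method by which TLS was induced. There were 8 animals in a group, 4 with the sex label F and 4 with M, and by their labels the same animals gave the 4 tissues. Control WAT had 7 libraries, since that of animal 9BA4 was not analysed here. The animals were perfused with saline before polyadenylated RNA was sequenced.

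Collagen chains assemble in triple helices and form the scaffold of the extracellular matrix. The chains of types I, III, V and XI build the banded fibrils of connective tissue, type IV forms the sheet beneath epithelia and around vessels and fat cells, and type VI forms fine filaments around cells. Other types sit on fibrils, anchor epithelia, or span the cell membrane. Each helix takes a set combination of chains, such as Col1a1 with Col1a2 or Col4a1 with Col4a2, and the chains are made mainly by fibroblasts, mural cells, endothelium, fat cells and, for some types, neurons or epithelia.

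The upstream sequences of 6 members that the results turn on are given first, read from RefSeq on the build GRCm38.p6. Windows of 250 bases before a RefSeq start were found for 35 of the 44 members, 38 windows in all. Each sequence is printed 5′ to 3′ on the strand of the gene, and capitals mark short motifs found on either strand. The motifs searched were CCAAT, known as the CCAAT box; GGGCGG, the core of the GC box; and TATAAA, the core of the TATA box. Col3a1, which had the highest level per kilobase of any member in WAT, has its window at chr1:45311288-45311537 on the plus strand, with 1 TATAAA match and a GC content of 35.2%. Col5a1, the 1 member that differed between TLS and control cortex, has its window at chr2:27886175-27886424 on the plus strand, with 2 GGGCGG matches and a GC content of 76.4%. Col24a1 and Col20a1 had the smallest p among members for control against time-0 cortex, and their windows at chr3:145292222-145292471 and chr2:180986285-180986534, both on the plus strand, held none of these motifs. Col4a1 and Col4a2, whose levels moved together in every tissue, start 21 bases apart on opposite strands of chromosome 8. Their annotated genes overlap at these starts, so that the upstream window of each lies within the other gene. Of these, 30 bases are shown around a CCAAT match of each, at chr8:11312954-11312983 on the minus strand and chr8:11312761-11312790 on the plus strand.
Col3a1: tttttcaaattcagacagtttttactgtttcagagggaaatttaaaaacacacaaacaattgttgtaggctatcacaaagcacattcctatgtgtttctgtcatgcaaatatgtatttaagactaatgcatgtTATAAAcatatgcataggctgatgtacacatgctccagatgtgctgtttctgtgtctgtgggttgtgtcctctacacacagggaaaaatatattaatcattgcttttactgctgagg
Col5a1: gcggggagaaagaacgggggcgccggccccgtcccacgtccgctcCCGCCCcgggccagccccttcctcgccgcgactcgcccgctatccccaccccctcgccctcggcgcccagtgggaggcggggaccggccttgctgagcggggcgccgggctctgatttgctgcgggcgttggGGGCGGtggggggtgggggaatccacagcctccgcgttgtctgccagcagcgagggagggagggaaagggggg
Col24a1: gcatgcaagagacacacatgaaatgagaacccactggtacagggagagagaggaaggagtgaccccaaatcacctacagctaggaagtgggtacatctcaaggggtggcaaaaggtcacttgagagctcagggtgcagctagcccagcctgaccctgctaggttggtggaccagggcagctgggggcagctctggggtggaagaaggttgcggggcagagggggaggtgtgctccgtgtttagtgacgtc
Col20a1: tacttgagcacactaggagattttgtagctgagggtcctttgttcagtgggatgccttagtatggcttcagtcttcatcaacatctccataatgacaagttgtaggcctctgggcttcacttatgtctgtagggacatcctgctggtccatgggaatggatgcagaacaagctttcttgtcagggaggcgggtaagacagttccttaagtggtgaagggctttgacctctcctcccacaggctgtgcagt
Col4a1: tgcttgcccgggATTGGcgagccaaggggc
Col4a2: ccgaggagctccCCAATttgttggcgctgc
A CCAAT match lay in 13 of the 38 member windows (34.2%) and in 33.8% of all 32851 windows of this length. The corresponding shares were 57.9% and 32.7% for GGGCGG and 13.2% and 12.4% for TATAAA. The median GC content was 59% in member windows and 52.4% in all. These matches describe letters and name no binding factor. Other neighbours among the members were Col4a3 and Col4a4, which lie head to head on chromosome 1 with 71 bases between them, and Col4a5 and Col4a6, head to head on the X chromosome with 1308 bases between them.

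Library totals were 14299369 to 22962145 counts for cortex, 8217875 to 28337864 for kidney, 4031533 to 29269511 for liver and 15881766 to 29089492 for WAT. Levels are given as CPM, the usual depth-scaled read count, after TMM scaling, and levels of different genes are compared only per kilobase of the principal transcript (CPM per kb). Differences are log2 fold changes with their SE from edgeR's quasi-likelihood fit of all libraries of a tissue with the sex label as a covariate, and a gene counted as called when its p, adjusted by Benjamini and Hochberg's method across every gene tested in that tissue, was below 0.05. Enough counts for a test were present for 43 of the 44 members in cortex, 35 in WAT, 33 in kidney and 22 in liver. Marker genes of the named tissue were present in each: the neuron markers summed to 6171 to 7099 (median 6739.6) CPM in time-0 cortex, proximal tubule markers to 8896 to 11986 (median 9693) in kidney, hepatocyte markers to 56624 to 89230.5 (median 84868) in liver and adipocyte markers to 12035 to 27772 (median 23836) in WAT. Some libraries stood apart. In WAT, epididymis markers summed to 5426 CPM in time-0 male animal 6, 2891 in TLS male 47BE and 344 in TLS male E46E, and skeletal muscle markers to 4871 in TLS female B51B and 775 in TLS female B4B9. In kidney, the tubular injury markers summed to 1287 CPM in TLS male A5DA against 31.1 in the next library. In TLS liver the same list reached 7764 CPM in an M library (group median 18.0), against at most 20.5 in control. Macrophage markers reached 605 CPM in TLS liver (median 107) and 3188 in TLS WAT (median 572), both in M libraries. The tubular injury list reached 5670 CPM in time-0 WAT (median 26.7). Which animals held these values is not given here. The share of counts from the nuclear RNAs Malat1, Neat1 and Meg3 differed between cortex groups, with means of 0.568% and 0.513% in time-0 F and M, 0.311% and 0.613% in control F and M and 0.273% and 0.268% in TLS F and M. In bulk tissue, fewer cells of a type and less RNA per cell cannot be told apart.

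The collagen genes took a different share of the counts in each tissue, and different types led. In time-0 animals the members' median share of all counts was 0.901% in WAT, 0.146% in kidney, 0.0995% in liver and 0.0626% in cortex. WAT was led by Col3a1, the chain of the type III fibrils of distensible tissue, at 307 ± 107 CPM per kb (mean ± SD, n = 8). Next came Col4a1 of the basement membrane at 176 ± 46.5, Col1a2 of type I fibrils at 158 ± 46.9, and the filament chains Col6a2 at 145 ± 31.2 and Col6a1 at 128 ± 34.8. The SDs of these last 4 overlap, so their order is not resolved. When length was counted over all exons, Col1a2 took place 9 and Col6a2 place 8 in WAT.

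Kidney was led by Col18a1, the basement membrane multiplexin whose end is released as endostatin, at 48.8 ± 8.92 CPM per kb. Type IV chains followed, with Col4a1 at 34.2 ± 7.46, Col4a2 at 25.4 ± 4.26 and Col4a4, a chain of the glomerular filter, at 18.9 ± 4.62, and then Col1a2 at 14.4 ± 2.84. With length counted over all exons, Col1a2 took place 8 in kidney and Col3a1 place 7 in liver. Col4a3, the glomerular partner of Col4a4, was at 13.3 ± 6.55 in kidney and at a median of 0.279 CPM per kb in WAT and 0.0613 in cortex. Liver was dominated by Col18a1, at 130.1 ± 38.8 CPM per kb, which was 77.6% of the members' summed level. No other member averaged over 10 in time-0 liver on that scale: Col5a3 of type V stood at 8.61 ± 7.86, Col27a1, a fibrillar chain best known from cartilage, at 6.62 ± 6.06, the fibril-associated Col14a1 at 3.69 ± 0.844 and Col3a1 at 3.03 ± 1.00.

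Cortex differed from the other tissues in which chains were seen at all. Col6a1 led at 21.5 ± 5.53 CPM per kb, then Col4a2 at 13.9 ± 1.75, Col25a1, a transmembrane chain of neurons, at 13.3 ± 1.64, Col4a1 at 9.23 ± 0.938 and Col11a2, a type XI chain, at 7.89 ± 1.25. Col25a1 took the third place by the principal transcript and place 9 when length was counted over all exons. Its CPM in time-0 libraries was 26.0 to 40.0 (median 35.5) in cortex and at most 0.835 in kidney. Likewise Col24a1, a minor fibrillar chain, was at 10.1 to 19.4 (median 15.1) CPM in time-0 cortex and at most 0.939 in kidney. The fibril genes that led WAT were low: Col3a1 had a median of 2.15 CPM in time-0 cortex against 1833 in time-0 WAT. Col10a1, known from hypertrophic cartilage, was tested in no tissue, and Col26a1 and Col28a1 had no count in any liver library.

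**Figure D1:**
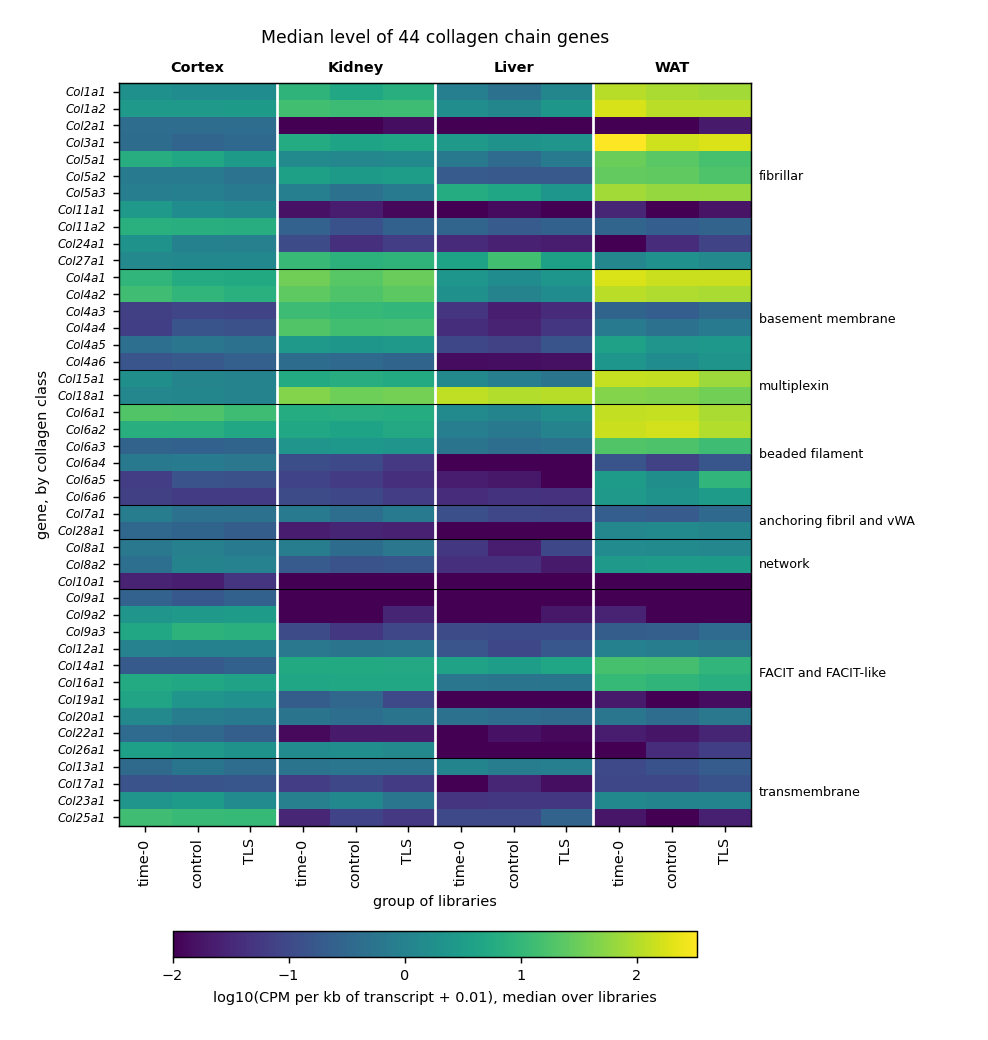
Median level of each of the 44 genes (rows, by class) in time-0, control and TLS libraries of cortex, kidney, liver and WAT (columns), as log10 of CPM per kb plus 0.01. The WAT columns are brightest for types I, III, IV, VI and XV, the liver columns for Col18a1, and the cortex columns hold Col24a1, Col25a1 and Col11a1, which are dark elsewhere.

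Chains that share a helix were compared within libraries. The 2 chains of the general basement membrane, Col4a1 and Col4a2, stood in ratios per kb with time-0 medians of 0.677 for cortex, 1.34 for kidney, 1.37 for liver and 1.54 for WAT. The ratio of Col1a1 to Col1a2 had medians of 0.656, 0.584, 0.548 and 0.725 in the same order, and that of Col6a1 to Col6a2 of 3.11, 1.25, 1.84 and 0.885. Type VI was thus the pair whose ratio differed most between cortex and WAT. Which chain of a pair is the higher one can depend on the length used. Col1a2 measured 5.348 kb by the principal transcript and 12.426 kb over all exons, against 5.93 and 6.563 kb for Col1a1. For Col6a2 the lengths were 3.949 and 8.326 kb, against 4.1 and 4.38 kb for Col6a1.

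Partners also varied together between animals. Log2 levels were centred within group and sex, and 18 correlations were computed over the 24 libraries of cortex, kidney or liver or the 23 of WAT, each with a permutation test within group and sex. For Col4a1 and Col4a2, Pearson's r was 0.97 in WAT (Spearman's rho 0.96), 0.94 in kidney (rho 0.94), 0.87 in cortex (rho 0.76, permutation p = 0.00019 and 0.00021) and 0.75 in liver (rho 0.79). The largest adjusted permutation p of these 4 was 0.00404, and without the 2 libraries farthest from the median r was 0.96, 0.91, 0.80 and 0.79 in that order. For Col1a1 and Col1a2, r was 0.95 in WAT, 0.93 in kidney, 0.84 in liver and 0.68 in cortex (rho 0.92, 0.83, 0.85 and 0.65), with a largest adjusted permutation p of 0.0044. In cortex it was 0.49 without the 2 farthest libraries.

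The glomerular chains Col4a3 and Col4a4 gave r = 0.92 in kidney and 0.81 in WAT (rho 0.88 and 0.86; adjusted permutation p 4.5e-05 and 6e-05). In cortex, where both were under 2 CPM on average, they gave 0.40 (rho 0.36; adjusted permutation p 0.0462 and 0.0981). Col4a5 and Col4a6 gave 0.85 in WAT, 0.59 in kidney and 0.39 in cortex, where the adjusted permutation p was 0.166. Col6a1 and Col6a2 gave 0.96 in WAT, 0.84 in cortex, 0.67 in kidney and 0.47 in liver, where the adjusted permutation p was 0.0648. Values of one library share its depth and its cells. The smallest p these permutations can give is 1e-05.

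**Figure D2:**
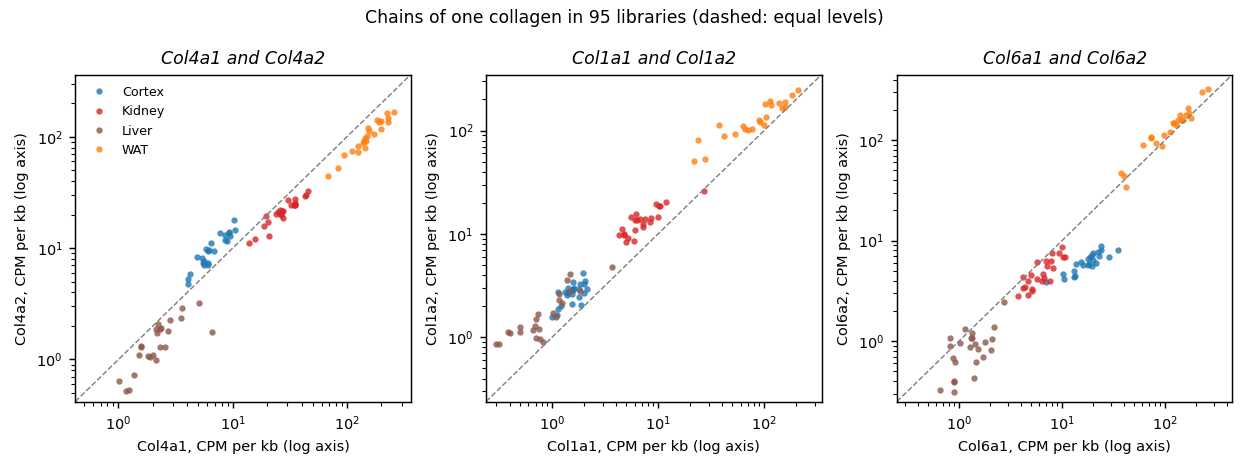
Levels of partner chains in each library, both as CPM per kb on log axes, for Col4a1 and Col4a2, Col1a1 and Col1a2, and Col6a1 and Col6a2, with colour by tissue; the dashed line marks equal levels. WAT libraries lie highest, and cortex libraries fall on the side of the line where Col4a2 exceeds Col4a1 and Col6a1 exceeds Col6a2.

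The first comparison set TLS mice against controls of equal age. In cortex, Col5a1, a type V chain that helps set the diameter of fibrils, was lower in TLS. Its level was 16.7 to 40.6 (median 23.9) CPM in TLS libraries, 30.4 to 52.6 (median 41.5) in control and 48.2 to 77.1 (median 54.0) in time-0. The TLS and control ranges overlapped over all animals but not within a sex: F libraries were at 16.7 to 25.4 in TLS against 30.4 to 41.9 in control, and M libraries at 18.7 to 40.6 against 41.0 to 52.6. The log2 fold change was -0.69 ± 0.14 (adjusted p = 0.0109), and 0 of 8 TLS animals stood above the control mean of their sex. Col5a1 was the 1 member called of 43 (2.33%), where 5.41% of all genes tested were called, 2.42% as lower and 2.99% as higher.

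The call of Col5a1 was lost when the nuclear RNA share was a covariate, with a difference of -0.53 (adjusted p = 0.324). It was also lost at 4 animals a group, with -0.78 in F alone (0.0904) and -0.60 in M alone (0.0806). Of all genes, 0.012% were called with that covariate, 0.012% in F alone and 20.4% in M alone. The nuclear RNA share itself was lower in TLS than in control M and similar in F, and its part in the result was not tested. Without control animal D215 4 members were called, without TLS animal B23B 3, and 2 without control animal A123 or TLS animal B03E. Of the 43 members, 30 had a negative difference, with a median of -0.12 against 0.00 over all genes. The fibril mates of Col5a1 gave -0.38 for Col5a2, -0.14 for Col5a3, -0.03 for Col1a1 and 0.29 for Col3a1, none of them called. Type VI gave -0.25 for Col6a1 and -0.37 ± 0.13 (adjusted p = 0.0874) for Col6a2, and type IV -0.08 for Col4a1 and -0.18 for Col4a2. By sex Col6a1 gave -0.84 in M and 0.38 in F, a difference of -1.22 ± 0.41 (adjusted p = 0.0885). A fit of M libraries alone called 6 members, all lower, where 20.4% of all genes were called: Col6a1 at -0.82 (adjusted p = 6.49e-06), Col16a1, Col6a2, Col26a1, Col5a3 and Col23a1. Col5a1 was not among them. Other members with small p were Col26a1 at -0.44 ± 0.14 (adjusted p = 0.0548) and Col23a1 at -0.72 ± 0.25 (adjusted p = 0.0897).

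Lists of genes that make, modify or bind collagen were counted in the same comparison, where 2.99% of all genes were called as higher and 2.42% as lower. Of 22 genes of biosynthesis and secretion 1 was called, the lysyl hydroxylase Plod1 (0.30), and of 11 tested for propeptide removal and crosslinking 1, the peroxidasin gene Pxdn, whose product crosslinks type IV (-0.27). Higher in TLS were the inhibitor of matrix proteases Timp4 (0.43), 1 of 10 genes of degradation, the collagen receptors Lair1 (0.56) and Itgb1 (0.28), 2 of 8, the collagen-binding Sparc (0.54), 1 of 14 fibril partners, and Smad7 (0.25), 1 of 11 regulators. None of 16 basement membrane partners was called. Lair1 is a receptor of leukocytes, and 3 of 5 macrophage markers were higher in TLS, with summed levels of 207 to 399.7 (median 254) CPM in TLS and 169 to 223 (median 195) in control; their part in these results was not tested. None of the tested fibroblast, mural or endothelium markers was called in cortex.

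**Figure D3:**
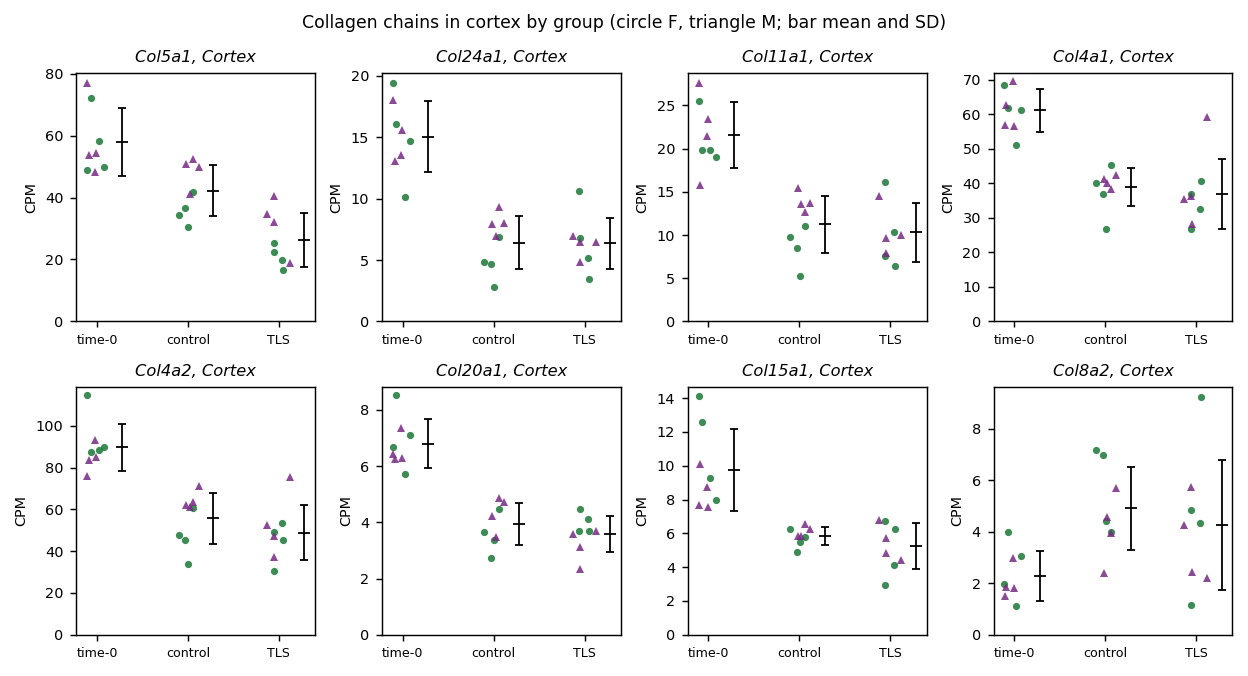
Level in CPM of 8 members in each cortex library by group, with circles for F and triangles for M and a bar for the mean and SD. For Col24a1, Col20a1, Col4a1, Col11a1, Col15a1 and Col4a2 every control library lies below every time-0 library, for Col5a1 TLS lies lowest, and Col8a2 is lowest in time-0.

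In liver Col1a1 was the 1 member called of 22 (4.55%, where 1.95% of all genes were called, 0.684% as higher and 1.26% as lower). It stood at 2.30 to 21.7 (median 6.93) CPM in TLS, 1.77 to 7.42 (median 2.98) in control and 3.91 to 8.84 (median 5.30) in time-0 libraries. TLS female B4B9 was the highest, at 21.7 CPM, and the groups overlapped. The log2 fold change was 1.29 ± 0.34 (adjusted p = 0.0471), with 6 of 8 TLS animals above the control mean of their sex. The call was lost without B4B9 (0.94, adjusted p = 0.147) and without any 1 of 17 further libraries out of 24, where adjusted p was 0.0526 to 0.118. It was kept without control 5A66 or D215, TLS A5DA, B03E or B23B, or time-0 animal 3, with 2 members called without A5DA and 5 without B23B. It was also lost with no sex covariate (adjusted p = 0.0715), with the 2 groups alone (0.155), in F alone (0.638), in M alone (0.0877) and with the nuclear RNA share as covariate (0.0546), where Col4a1 was called instead (0.94, adjusted p = 0.0486). Of all genes, 0.493% were called with the 2 groups alone, 0.0146% in F alone, 0.35% in M alone and 3.02% with that covariate. Over all alternatives the adjusted p of Col1a1 ran from 0.00745 to 0.638. Type IV and the other type I chain had the same sign: Col4a1 gave 0.92 ± 0.27 (adjusted p = 0.08), Col4a5 1.45 ± 0.46 (adjusted p = 0.0927) and Col1a2 0.98 ± 0.31 (adjusted p = 0.0939). Of the 22 members 18 were positive, with a median of 0.44 against 0.08 over all genes; 11 (50%) had an unadjusted p below 0.05 where 17.5% of all genes had, and DESeq2 called 5, 4 higher and 1 lower, where it called 4.56% of all genes. Beside this, mesothelium markers summed to 1.59 to 10.7 (median 5.83) CPM in TLS and 1.24 to 4.43 (median 2.44) in control liver, and stellate cell markers to 169 to 368 (median 221) and 184 to 278 (median 242), with no marker at 0 throughout. Hepatocyte markers summed to 38959 to 98879.9 (median 65440.3) CPM in TLS and 71116 to 130557 (median 92686) in control liver. The part of these cell types in the members' differences was not tested.

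In kidney no member of 33 was called between TLS and control by edgeR, against 0.231% of all genes (0.0812% higher, 0.15% lower). At an unadjusted p below 0.05 there were 7 (21.2%, against 8.45% of all genes), and DESeq2 called 1, Col23a1, as lower, where it called 0.631% of all genes. All 8 tested fibrillar chains had a positive difference, from 0.13 for Col27a1 to 0.84 for Col11a2, and none passed. Without TLS male A5DA, when Col24a1 also passed the filter, 6 of 9 were positive, and Col1a1 gave 0.25, Col1a2 -0.08, Col3a1 -0.03 and Col5a1 -0.01. Col1a1 stood at 29.8 to 162 (median 40.0) CPM in TLS and 25.6 to 56.1 (median 30.7) in control kidneys, with TLS male A5DA highest. The smallest p were those of Col23a1, a transmembrane chain, at -0.78 ± 0.21 (adjusted p = 0.172), of Col7a1, which forms the fibrils that anchor epithelia, at 0.78 ± 0.23 (adjusted p = 0.217), and of Col20a1 at 0.63 ± 0.18 (adjusted p = 0.219). The basement membrane chains gave 0.41 for Col4a1, 0.32 for Col4a2, -0.08 for Col4a3, 0.05 for Col4a4 and 0.22 for Col18a1.

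In WAT no member of 35 was called by edgeR, against 0.00596% of all genes, with 5 (14.3%) at an unadjusted p below 0.05, where 11.1% of all genes were, and none called by DESeq2. Col6a5, a type VI chain, was at 8.64 to 228 (median 88.2) CPM in TLS and 4.97 to 112 (median 16.4) in control, a difference of 1.05 ± 0.38 (adjusted p = 0.31). The abundant chains gave 0.53 ± 0.27 for Col3a1, 0.12 ± 0.27 for Col1a2, 0.23 ± 0.24 for Col4a1, 0.08 ± 0.31 for Col6a1 and -0.58 ± 0.31 for Col15a1. In simulated data with the spread of each tissue, 2-fold changes were recovered in 91.5% of cases in cortex, 79% in kidney, 66% in WAT and 49% in liver. Each simulation changed 200 genes, all of at least 1 CPM. The adjusted threshold depends on how many genes change, so these rates need not hold where fewer genes differ or levels are lower.

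The next comparison set control animals against time-0 animals, which were younger. In cortex 13 of 43 members (30.2%) were called, where 21.2% of all genes were. Lower members numbered 10, where 10.5% of all genes were lower, and higher members 3, where 10.8% were higher. By class, 3 of 11 fibrillar, 2 of 6 basement membrane, 1 of 2 multiplexin, 3 of 10 FACIT and FACIT-like chains and Col7a1 were lower, and 1 beaded filament, 1 network and 1 transmembrane chain were higher.

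Col4a1 and Col4a2, the chains of the vascular basement membrane, were both lower in control cortex. Col4a1 stood at 51.2 to 69.7 (median 61.6) CPM in time-0, 26.6 to 45.3 (median 40.0) in control and 26.8 to 59.3 (median 35.9) in TLS libraries, and Col4a2 at 75.9 to 115 (median 88.0), 33.7 to 71.4 (median 60.9) and 30.6 to 75.4 (median 48.2). For both, every control library was below every time-0 library. The log2 fold changes were -0.65 ± 0.12 (adjusted p = 0.000593) and -0.71 ± 0.14 (adjusted p = 0.00172). Col15a1, a multiplexin of vessel walls, was also lower, with 7.58 to 14.1 (median 9.02) CPM in time-0 and 4.88 to 6.56 (median 5.82) in control and -0.73 ± 0.15 (adjusted p = 0.00116). The other multiplexin, Col18a1, gave -0.05 ± 0.16, and Col4a5 0.17 ± 0.19; neither was called. Summed over type IV, the level was 21.0 to 28.8 (median 23.5) CPM per kb in time-0 and 10.0 to 18.2 (median 16.5) in control. Endothelium markers summed to 113 to 186 (median 166) CPM in time-0 and 110.2 to 178 (median 122) in control, and mural markers to 139 to 182 (median 159.8) and 133 to 189 (median 148), with none of 7 and none of 8 markers called; their part was not tested.

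Among fibrillar chains Col24a1, Col11a1 and Col5a1 were lower, and those of types I and III were not called. Col24a1 stood at 10.1 to 19.4 (median 15.1) CPM in time-0, 2.80 to 9.30 (median 6.91) in control and 3.43 to 10.6 (median 6.48) in TLS libraries, and Col11a1, a type XI chain, at 15.8 to 27.6 (median 20.6), 5.27 to 15.4 (median 11.8) and 6.37 to 16.1 (median 9.86). Neither control range reached the time-0 range. The differences were -1.24 ± 0.20 (adjusted p = 0.000208) and -0.96 ± 0.18 (adjusted p = 0.000779). Col5a1 gave -0.48 ± 0.14 (adjusted p = 0.0187). Col1a1 gave -0.03 ± 0.15, Col1a2 0.00 ± 0.17 and Col3a1 -0.30 ± 0.25. The sum over fibrillar chains was 24.1 to 33.8 (median 26.4) CPM per kb in time-0, 18.0 to 25.1 (median 21.3) in control and 14.4 to 23.1 (median 19.0) in TLS. Markers of fibroblasts, the main makers of types I and III, summed to 43.6 to 62.6 (median 50.6) CPM in time-0 and 48.5 to 96.4 (median 61.0) in control, and 2 of 5 tested, Dcn and Pi16, were higher; their part was not tested. The call of Col5a1 was lost with no low-count filter (adjusted p = 0.0573), no sex covariate (0.0541) or the nuclear RNA share as covariate (0.0564).

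Of the fibril-associated chains, Col20a1 fell from 5.73 to 8.52 (median 6.56) CPM in time-0 to 2.72 to 4.85 (median 3.95) in control without overlap, with -0.78 ± 0.13 (adjusted p = 0.000281). Col19a1, which is made by some interneurons, stood at 13.1 to 24.6 (median 18.2) and 6.19 to 15.8 (median 9.50) CPM, with overlap and a difference of -0.88 ± 0.20 (adjusted p = 0.00421). Col7a1, which is not of this class, stood at 5.63 to 10.5 (median 7.28) and 2.28 to 7.20 (median 4.43), with -0.69 ± 0.19 (adjusted p = 0.0107). Col26a1, counted here with the FACIT-like chains, gave -0.39 ± 0.13 (adjusted p = 0.0382). Of these, Col24a1, Col20a1, Col4a1, Col11a1, Col15a1, Col4a2, Col19a1 and Col7a1 were called under all 31 other settings tried. The call of Col26a1 was lost without any 1 of 7 libraries, namely control 9916, A123 or D215 or time-0 animals 1, 2, 4 or 5, with adjusted p between 0.0563 and 0.0919, and with the nuclear RNA share as covariate (-0.26, adjusted p = 0.119).

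The higher members in control cortex were of low level. Col8a2, of the network that underlies corneal endothelium and vessels, stood at 1.14 to 3.98 (median 1.91) CPM in time-0, 2.40 to 7.19 (median 4.51) in control and 1.14 to 9.24 (median 4.29) in TLS libraries, with 1.10 ± 0.31 (adjusted p = 0.0147) for control against time-0. Col6a5 stood at 0.388 to 0.906 (median 0.527) and 0.391 to 1.43 (median 1.21), with 1.00 ± 0.30 (adjusted p = 0.0189). Col13a1, a transmembrane chain of nerve-muscle contacts, gave 0.60 ± 0.19 (adjusted p = 0.0285), a call lost without time-0 animal 1, 2 or 3 (adjusted p from 0.0531 to 0.0662) or with no low-count filter (0.0902). Markers of choroid plexus, the secretory tissue of the ventricles, summed to 4.71 to 619.9 (median 75.8) CPM in time-0, 110.0 to 1207 (median 671) in control and 10.1 to 974 (median 666) in TLS cortex, and 1 of 5, Folr1, was called. With the log of that sum as a covariate, an alternative chosen after seeing the data, 9 members were called, all of them lower. The share of all genes called in that fit is not given here. Not called in it were Col8a2 at 0.41 (adjusted p = 0.238), Col6a5 at 0.68 (0.216), Col13a1 at 0.49 (0.163) and Col26a1 at -0.37 (0.132).

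The lists of collagen handling genes held calls on both sides in this comparison, as did all genes, with 10.5% lower and 10.8% higher. Of 22 biosynthesis genes 4 were lower, among them the prolyl hydroxylases P3h3 (-0.34), P3h1 (-0.34) and P4ha1 (-0.24) and the collagen exporter Mia3 (-0.21), and 1 was higher. Of 11 genes of propeptide removal and crosslinking 3 were lower, Bmp1 (-0.37), Adamts3 (-0.41) and Pxdn (-0.25), and Pcolce2 was higher (0.48). Higher were also 2 of 10 degradation genes, the inhibitors Timp4 (0.49) and Timp3 (0.27), and 2 of 14 fibril partners, Dcn (1.10) and Sparc (0.59). Of 8 receptors Lair1 was higher (0.43) and Itga10 lower (-0.63), of 16 basement membrane partners Agrn was lower (-0.30), and of 11 regulators Skil (-0.36) and Ccn2 (-0.25) were lower.

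Outside cortex no member was called for control against time-0 by edgeR. In kidney 0.312% of all genes were called, 9 of 33 members (27.3%) had an unadjusted p below 0.05 where 11.3% of all genes had, and 25 were negative, with a median of -0.27 against 0.00 over all genes. Col4a1 stood at 172 to 304 (median 232) CPM in time-0, 90.9 to 183 (median 149) in control and 103 to 291 (median 206) in TLS kidneys, with -0.61 ± 0.17 (adjusted p = 0.13) for control against time-0. Col18a1 stood at 177 to 294 (median 227), 113 to 179 (median 157) and 81.9 to 279 (median 182), with -0.60 ± 0.17 (adjusted p = 0.137). Col7a1 was at 5.52 to 7.76 (median 6.70) in time-0 and 2.68 to 4.62 (median 3.89) in control, ranges that did not overlap, with -0.79 ± 0.23 (adjusted p = 0.144). The count depended on the fit: DESeq2 called 3 members, Col4a1, Col18a1 and Col7a1, where it called 1.34% of all genes. A fit of the 2 groups alone called these and Col1a1, where 0.916% of all genes were called, and the fit without TLS animal A5DA called 3. All the members that DESeq2 and the fit of 2 groups called were lower in control.

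In liver 0.529% of all genes were called and 21 of 22 members were negative, with a median of -0.45 against 0.00 over all genes; 7 (31.8%) had an unadjusted p below 0.05 where 15.1% of all genes had. DESeq2 called 1, Col27a1 as higher, where it called 1.82% of all genes, and a fit of the 2 groups alone called 3 of 21, Col27a1 as higher and Col4a1 and Col4a2 as lower, where 2.69% of all genes were called. Col27a1 was the exception in sign, at 9.43 to 146 (median 31.7) CPM in time-0, 17.9 to 284 (median 106) in control and 3.20 to 186 (median 27.7) in TLS livers, with 1.54 ± 0.48 (adjusted p = 0.158) for control against time-0 and -1.36 ± 0.48 (adjusted p = 0.132) for TLS against control. Col4a1 gave -0.64 ± 0.27 (adjusted p = 0.27) and Col1a1 -0.75 ± 0.34 (adjusted p = 0.294).

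In WAT 0.161% of all genes were called and 29 of 35 members were negative, with a median of -0.34 against -0.02 over all genes; 6 (17.1%) had an unadjusted p below 0.05 where 11.6% of all genes had, and DESeq2 called 1, Col3a1, as lower, where it called 1.25% of all genes. Col3a1 stood at 713 to 2654 (median 1833) CPM in time-0, 446 to 1563 (median 879) in control and 501 to 2383 (median 1038) in TLS fat. All 7 control libraries were below the time-0 mean of their sex, the ranges overlapped, and the difference was -0.98 ± 0.27 (adjusted p = 0.161). When the 5 libraries with epididymis or muscle markers were left out, which was chosen after seeing the data, 2 members were called, Col3a1 at -1.06 (adjusted p = 0.0316) and Col4a5 at -0.85 (0.0215), and 1 was called when time-0 animal 6 alone was left out. The shares of all genes called in these fits are not given here. Time-0 animal 6 held the highest WAT values of Col6a4 (333 CPM against 3.31 in the next library), Col7a1 (50.1 against 7.66) and Col17a1 (10.5 against 1.28), chains of which the last 2 belong to the junction of epithelium and stroma.

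TLS was also set against time-0. This comparison shares its TLS libraries with the first and its time-0 libraries with the second, so the values are given side by side and are no separate support. In cortex 19 of 43 members (44.2%) were called, where 35.7% of all genes were. Lower members numbered 16, where 17.6% of all genes were lower, and higher ones 3, where 18.1% were higher. Col5a1 had the smallest p, at -1.16 ± 0.14 (adjusted p = 3.44e-06), with no overlap between TLS and time-0. Col24a1 gave -1.24 here and -1.24 in control against time-0, Col11a1 -1.06 and -0.96, Col20a1 -0.92 and -0.78, Col15a1 -0.90 and -0.73, Col4a1 -0.73 and -0.65, and Col4a2 -0.89 and -0.71. Col8a2 (0.91), Col6a5 (1.01) and Col9a2, a cartilage FACIT chain (0.36), were higher in TLS.

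Members called here and not in the other comparisons of groups in cortex were Col16a1 (-0.52 ± 0.14, adjusted p = 0.0043), Col11a2 (-0.47 ± 0.14, adjusted p = 0.0107), Col25a1 (-0.34 ± 0.10, adjusted p = 0.00739), Col22a1 (-0.65 ± 0.18, adjusted p = 0.00501), Col6a2 (-0.38 ± 0.13, adjusted p = 0.0233), Col5a2 (-0.47 ± 0.17, adjusted p = 0.0377) and Col9a2 (0.36 ± 0.12, adjusted p = 0.0168). The call of Col5a2 was lost without any 1 of 10 libraries (TLS A5DA, B23B, B4B9, B51B or E46E or time-0 animals 2 to 6, adjusted p from 0.0541 to 0.0868), that of Col6a2 without TLS E46E (0.0532) or time-0 animal 1 (0.0586), and that of Col8a2 without TLS B4B9 (0.071) or DDF3 (0.0583). Under adjustment for the nuclear RNA share 2 members were called, Col5a1 and Col4a1, where 5.21% of all genes were called. With choroid plexus markers as a covariate 16 members were called, and the share of all genes called in that fit is not given here. In kidney (0.681% of all genes called), liver (1.34%) and WAT (0.226%) no member was called by edgeR. At an unadjusted p below 0.05 there were 2, 0 and 7 (6.06%, 0% and 20%, against 15.1%, 14.9% and 13.1% of all genes), and DESeq2 called 1, in WAT, where it called 2.22% of all genes. Col24a1 had the smallest p in WAT, but no fold is given: it was at 0 to 0.197 (median 0) CPM in time-0 fat, and TLS male A5DA held 18.9 CPM against 2.07 in the next library. Col6a5 followed at 1.32 ± 0.37 (adjusted p = 0.111), with 8 of 8 TLS animals above the time-0 mean of their sex.

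**Figure D4:**
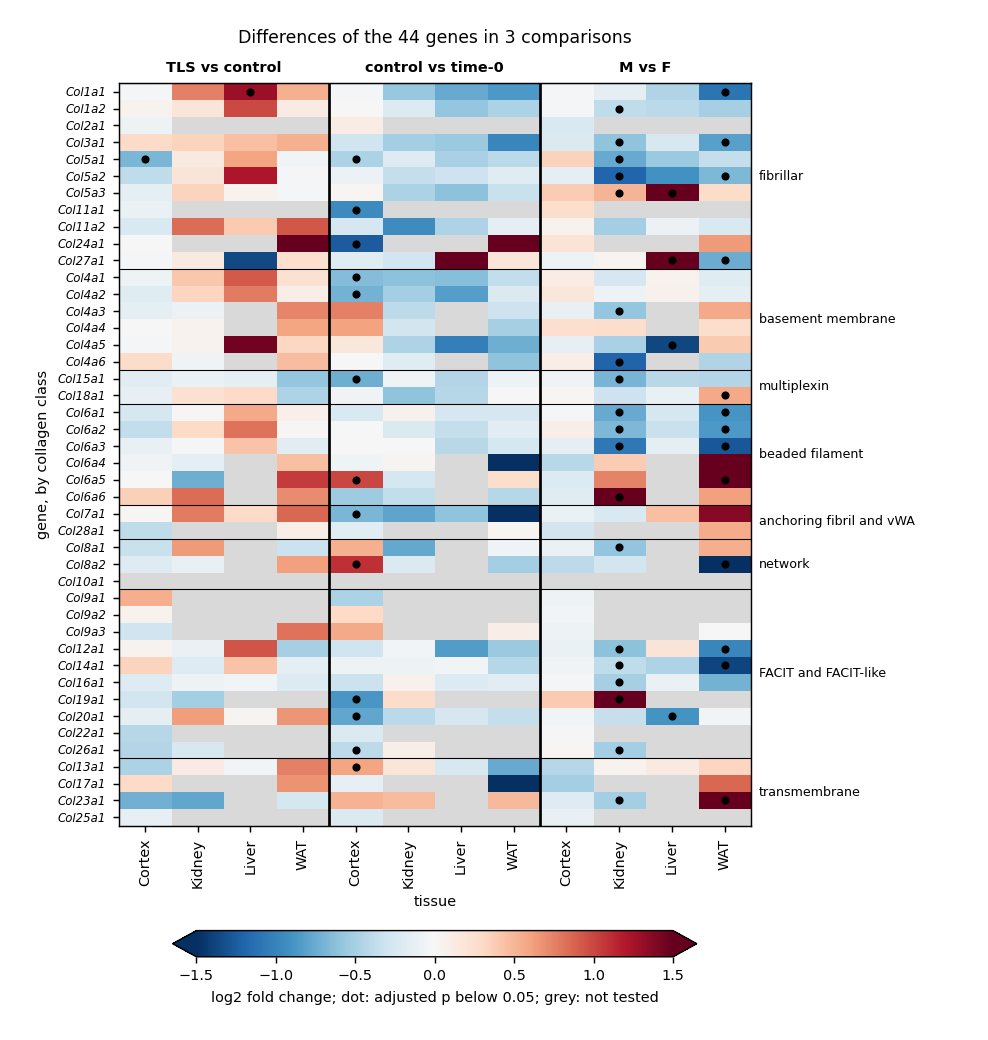
Log2 fold change of each member (rows, by class) for TLS against control, control against time-0 and M against F in each tissue (columns); a dot marks an adjusted p below 0.05 and grey a member that was not tested. The colour scale ends at 1.5 in either direction, dots for control against time-0 stand in the cortex column, and dots for M against F stand mostly in the kidney and WAT columns.

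M and F animals were compared over all 3 groups, by the sex letter of each library; in kidney, time-0 animals 4 and 5 carry the other letter than in the remaining tissues. In kidney 19 of 33 members (57.6%) were called, where 46.8% of all genes were. Lower in M were 16, where 22.2% of all genes were lower, and higher in M 3, where 24.6% were higher. Of the 3 higher ones, Col6a6 and Col19a1 were near 0 in F kidneys and had enough counts for a test only through M libraries, so a call in that direction was the only one open to them. Of the lower ones, Col6a3, a type VI chain whose end is released as endotrophin, had the smallest p. It stood at 20.0 to 48.6 (median 30.4) CPM in F and 11.9 to 20.8 (median 15.4) in M, and Col6a1 at 27.0 to 43.7 (median 32.5) and 15.4 to 26.1 (median 20.0). The ranges of Col6a1 did not overlap, those of Col6a3 overlapped slightly, and 0 of 12 M kidneys stood above the F mean of their group. The log2 fold changes were -1.07 ± 0.13 (adjusted p = 2.02e-07) and -0.75 ± 0.10 (adjusted p = 1.03e-06), and Col6a2 gave -0.67 ± 0.13 (adjusted p = 0.000119). Another type VI chain, Col6a6, was at 0 to 0.468 (median 0.135) CPM in F and 0.817 to 10.3 (median 2.33) in M; no fold or test is given for it.

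Of the fibrillar chains in kidney, Col5a2 stood at 23.1 to 42.3 (median 29.1) CPM in F and 6.81 to 25.0 (median 11.5) in M, with -1.19 ± 0.15 (adjusted p = 6.14e-07). Col5a1 gave -0.75 ± 0.16 (adjusted p = 0.000351), Col3a1 -0.60 ± 0.22 (adjusted p = 0.0263) and Col1a2 -0.38 ± 0.15 (adjusted p = 0.0454), while Col5a3 was higher in M at 0.51 ± 0.15 (adjusted p = 0.00786). Of the basement membrane chains, Col4a6 gave -1.20 ± 0.29 (adjusted p = 0.00126) and the glomerular Col4a3 -0.58 ± 0.22 (adjusted p = 0.0315), while its partner Col4a4 gave 0.27 ± 0.14 (adjusted p = 0.108) and was not called. Col4a1 and Col4a2 gave -0.25 and -0.08, neither called. Col15a1 gave -0.70 ± 0.13 (adjusted p = 0.000125). Col19a1, of the FACIT class, was at 0 to 0.378 (median 0.0495) CPM in F and 0.636 to 4.07 (median 2.19) in M; most F kidneys held few or no reads of it, and no fold or test is given. Lower in M were also Col12a1 (-0.62), Col16a1 (-0.50), Col26a1 (-0.51), Col14a1 (-0.39), Col23a1 (-0.50) and Col8a1 (-0.60). With RLE scaling Col1a2 and Col8a1 were not called (adjusted p = 0.0541 for both), and with no low-count filter neither were Col3a1 and Col4a3.

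The lists of collagen handling genes were counted in M against F kidney, where 22.2% of all genes were lower and 24.6% higher. Lower in M were 10 of 13 fibril partners (Fn1 -1.16, Thbs1 -1.18), 11 of 16 basement membrane partners (Npnt -1.32, Nid1 -0.93), with 2 higher, 6 of 12 genes of propeptide removal and crosslinking (Pcolce2 -2.39, Bmp1 -0.86), and 7 of 21 biosynthesis genes (P3h2 -0.99, Creb3l1 -1.70), with 4 higher (Crtap 0.83). Of receptors 4 of 8 were lower (Itga1 -0.75), of regulators 6 of 11 (Tgfb2 -2.15), and of degradation genes 4 of 10 (Mmp2 -1.04), with 1 higher. Markers of podocytes, endothelium and mural cells were lower too: all 5 podocyte markers, summing to 233 to 407 (median 318) CPM in F and 158 to 315 (median 198) in M, 5 of 7 endothelium markers at 297 to 402 (median 342) and 239 to 286 (median 259), and 5 of 8 mural markers at 214 to 343 (median 299) and 149.7 to 270.4 (median 196), with 1 higher. Of 7 fibroblast markers 2 were lower, near the share of all genes. They summed to 58.1 to 125 (median 77.3) CPM in F and 33.8 to 127 (median 65.4) in M. The part of these cell types is taken up next. It was not tested in the members' differences. Without TLS animal A5DA, an alternative chosen after seeing the data, 24 of 34 tested members were called. The share of all genes called in that fit is not given here, so the count cannot be read as particular to the members.

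In WAT 13 of 35 members (37.1%) were called between M and F, where 11.8% of all genes were, with 3 higher in M (4.93% of all genes) and 10 lower (6.9%). Type VI chains differed in both directions. Col6a5 was at 2.21 to 40.3 (median 8.73) CPM in F and 38.9 to 228 (median 112) in M, with 3.33 ± 0.33 (adjusted p = 3.6e-07) and 11 of 11 M libraries above the F mean of their group. Col6a3 was at 119 to 435 (median 234) and 48.7 to 164 (median 100.5), with -1.27 ± 0.23 (adjusted p = 0.000715). The F and M ranges overlapped for both. Col6a1 gave -0.88 ± 0.25 (adjusted p = 0.0218) and Col6a2 -0.86 ± 0.27 (adjusted p = 0.0381). In kidney Col6a5 was at 0.0655 to 0.711 (median 0.335) and 0.0527 to 1.36 (median 0.576) and was not called (0.74 ± 0.36, adjusted p = 0.0907).

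Of the fibrillar chains Col1a1, Col3a1, Col5a2 and Col27a1 were lower in M fat, with Col1a1 at 393 to 1234 (median 649) CPM in F and 129.9 to 824 (median 317) in M. The differences were -1.10 ± 0.27 (adjusted p = 0.00881) for Col1a1, -0.81 ± 0.22 (adjusted p = 0.0156) for Col3a1 and -0.67 ± 0.21 (adjusted p = 0.0365) for Col5a2, while Col1a2 gave -0.50 ± 0.22 (adjusted p = 0.147). The fibril-associated Col14a1 gave -1.37 ± 0.27 (adjusted p = 0.0012) and Col12a1 -0.98, the network chain Col8a2 -1.91 ± 0.32 (adjusted p = 0.000301) and Col27a1 -0.74. Higher in M were the transmembrane Col23a1, at 2.57 to 7.37 (median 4.49) CPM in F and 3.76 to 16.3 (median 14.6) in M with 1.52 ± 0.19 (adjusted p = 8.94e-06), and Col18a1 at 0.57 ± 0.18 (adjusted p = 0.0465). With no low-count filter Col12a1, Col18a1, Col5a2 and Col6a2 were not called. None of the 6 type IV chains was called; Col4a1 gave -0.18 and Col4a2 -0.14.

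Beside these, 5 of 7 fibroblast markers were lower in M fat, summing to 2542 to 4520.1 (median 3367) CPM in F and 1488 to 2853 (median 2187) in M, as were all 4 mesothelium markers at 481 to 1272 (median 752) and 225 to 644 (median 373), and their part was not tested. Lower in M were also 9 of 22 biosynthesis genes (Plod2 -2.07), 4 of 13 of propeptide removal and crosslinking (Pcolce -1.23), 5 of 14 fibril partners (Lum -1.92, Postn -1.82) and 4 of 12 degradation genes (Mmp2 -1.25), while Timp4 was higher (1.89). Without the 5 libraries with epididymis or muscle markers 13 members were again called: Col18a1 (0.0704) and Col6a2 (0.0532) were lost, Col16a1 and Col6a6 were gained, and Col6a5 gave 3.69. The share of all genes called without these libraries is not given here.

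In liver 4 of 22 members (18.2%) were called between M and F, where 6.4% of all genes were, 2.94% as higher and 3.46% as lower. Col5a3 was at 2.91 to 37.4 (median 9.00) CPM in F and 8.34 to 146 (median 64.6) in M, with 2.44 ± 0.39 (adjusted p = 0.000116), and Col27a1 at 3.20 to 113 (median 20.0) and 14.8 to 284 (median 104), with 2.03 ± 0.40 (adjusted p = 0.00121). M livers were the higher ones and the ranges overlapped; control F livers of Col5a3 were at 5.05 to 10.1 CPM and control M at 44.8 to 116. Lower in M were Col20a1 (-0.90 ± 0.26, adjusted p = 0.0305) and Col4a5. Col20a1 was not called without TLS animal B51B, the library of lowest depth (0.0561). Col4a5 was of low level, at 0.0408 to 0.374 (median 0.0847) CPM per kb in time-0 livers. Its levels by sex are not given, so it may have been tested only through its F libraries. In that case a call as lower was the only one open to it, so no fold or test is given for Col4a5. With the stricter filter 21 members were tested and 1 was called as lower. In cortex no member of 43 was called by edgeR, against 0.126% of all genes (0.0602% higher, 0.0662% lower), with 4 (9.3%) at an unadjusted p below 0.05, where 11.2% of all genes were, and none called by DESeq2.

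**Figure D5:**
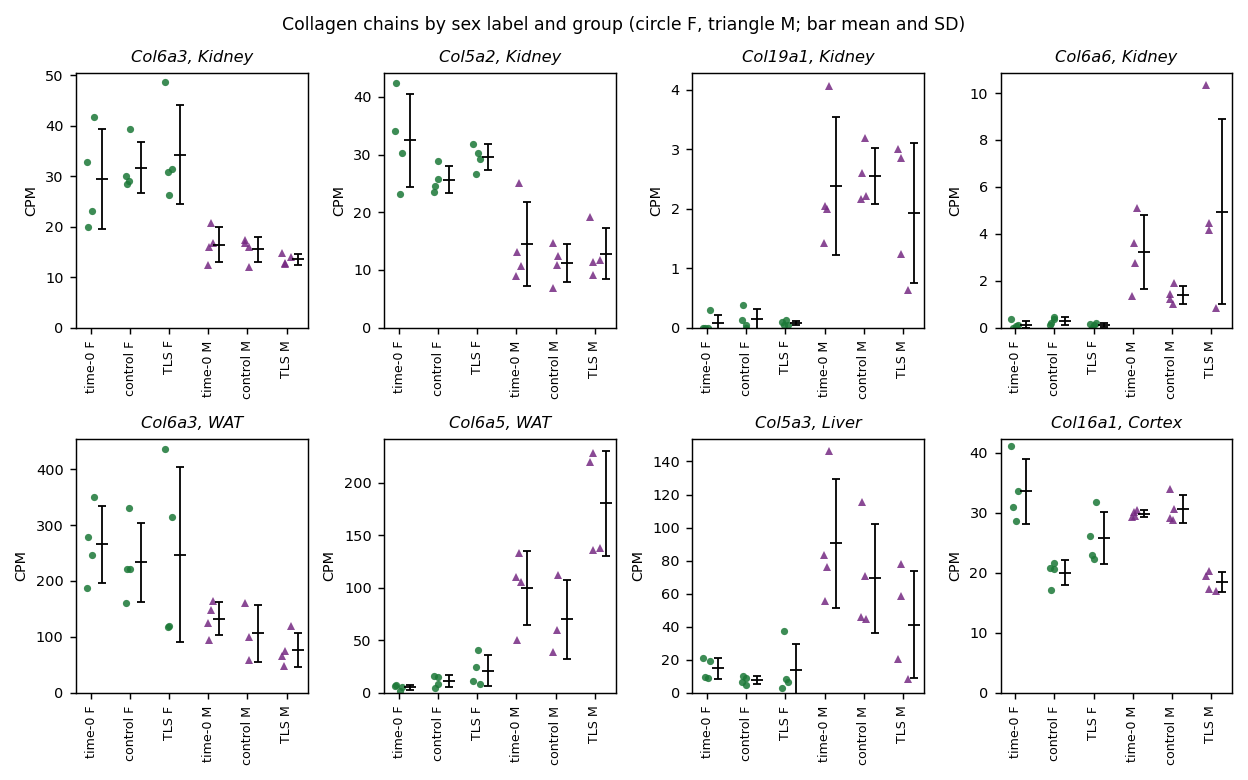
Level in CPM of 8 gene and tissue pairs by group and sex in each library, with circles for F and triangles for M and a bar for the mean and SD. Col6a3 and Col5a2 in kidney and Col6a3 in WAT are lower in M, Col19a1 and Col6a6 in kidney, Col6a5 in WAT and Col5a3 in liver are higher in M, and for Col16a1 in cortex the control and TLS groups differ in opposite directions in F and M.

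Whether the TLS effect itself differed between the sexes was tested with sex crossed with group. In cortex 2 of 43 members (4.65%) were called, where 5.08% of all genes were, 2.71% with a lower and 2.37% with a higher effect in M. Col16a1, a FACIT chain, was at 17.1 to 21.6 CPM in control F and 22.2 to 31.8 in TLS F, but at 28.8 to 33.9 in control M and 16.9 to 20.2 in TLS M. The TLS libraries were thus above the control libraries in F and below them in M, without overlap in either sex. The difference of the effects was -1.09 ± 0.16 (adjusted p = 0.00101) on the log2 scale. Col5a3 was at 3.19 to 4.23 and 4.36 to 5.29 CPM in F and at 6.60 to 7.59 and 3.39 to 6.00 in M, also without overlap in either sex, with -0.96 ± 0.23 (adjusted p = 0.0186). The control M libraries also had the highest nuclear RNA share (0.613%). With that share as a covariate, chosen after seeing the data, the differences were -0.62 (adjusted p = 0.622) and -1.10 (0.599), neither called. In kidney (0% of all genes), liver (0.00735%) and WAT (0%) no member was called by edgeR; 4, 1 and 2 had an unadjusted p below 0.05 (12.1%, 4.55% and 5.71%, against 8.28%, 6.17% and 15.3% of all genes), and DESeq2 called 1 in kidney, where it called 0.1% of all genes.

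A joint fit of all tissues tested whether the TLS effect was unequal among them. By it, 3 of 43 members were called, where 4.39% of 20888 genes were. Col27a1 (F = 5.71, adjusted p = 0.0376) differed from its cortex effect by 0.16 in kidney, -1.30 in liver and 0.27 in WAT, Col6a5 (F = 5.50, 0.0428) by -0.72 in kidney and 1.03 in WAT, and Col5a1 (F = 5.47, 0.0434) by 0.82, 1.30 and 0.66. In liver Col6a5 had too few counts to be tested alone (at most 0.4 CPM), so its term there is not given, and its F rests in part on that term. Because each animal gave several tissues, a second fit took the animal as a replicate block, by the labels as they stand. In kidney the labels of time-0 animals 4 and 5 carry the other sex letter than in the remaining tissues. With the block none of the 3 was called (adjusted p of 0.111, 0.0599 and 0.0998), where 2.3% of all genes were.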

How the data were processed

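The deposited table held gene counts for 95 libraries of polyadenylated RNA. Per the submitters' processing notes STAR 2.7.10 and the build mm10 were used to make them. The name of the table gives featureCounts as the counter, and its annotation and strand setting are not given in the sources used here. The table's first line calls it corrected, without saying how. Strand being unknown, reads of a gene and of an antisense neighbour cannot be told apart. In the labels, library numbers of TLS precede those of control, with time-0 among both; what the numbers stand for is not stated, and their part was not tested.

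The TLS and control groups came from the treatment labels and the time-0 group from the titles. edgeR 4.0.16 under R 4.3.3 tested each tissue's libraries (filterByExpr with a minimum count of 10, TMM, robust quasi-likelihood fit, group plus sex), with Benjamini-Hochberg adjustment over all genes tested. It was tested on simulated data. Levels used CPM, per kb of GENCODE's principal transcript for comparisons between genes, and correlations used log2(CPM + 0.5) with 100000 permutations. Tables and figures were made with Python 3.11.15, pandas 2.3.3, numpy 2.4.6 and matplotlib 3.10.9. Alternatives were DESeq2 1.42.0, RLE scaling, no low-count filter, a stricter one (8 libraries at 1 CPM), leaving out the sex covariate, the 2 groups alone, 1 sex alone, the nuclear RNA share as covariate, and each library left out. Same-numbered animals pair the tissues by label. Deviations correlated at a mean r of 0.033 over 135 same-animal pairs and -0.0097 over 429 others, with pairs of unlike sex letter left out.

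The members, gene lists and marker lists were chosen with earlier results of these data known. The genes named were 17 members of types I, III, IV, V, VI, XV and XVIII, up to 10 called members of smallest p in each comparison and tissue, the 5 members of highest level in each tissue at time-0, and up to 4 called genes of each other list; further members were chosen after their values were seen.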

Additional observations from a re-analysis of the deposited data

Results flagged for a closer look

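In 75 sets of values, each of one gene or sum in the 7 or 8 libraries of a tissue and group, a test for a library far from its neighbours marked 5, where chance marks about 1 in 20. All 5 were in cortex. In control cortex, animal D215 was lowest for Col4a1 at 4.76 on the log2(CPM + 0.5) scale, the nearest library being at 5.23, and lowest for the members' summed level at 6.22 on the log2(CPM per kb) scale, the nearest being at 6.66. Animal E329 was lowest for Col25a1 at 4.55 (nearest 4.86). In time-0 cortex, animal 1 was highest for Col16a1 at 5.38 (nearest 5.09), and animal 7 was lowest for Col25a1 at 4.73 (nearest 5.09). The cause was not tested.

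The TLS effect in cortex differed between the sexes for Col16a1, by -1.09 in M minus F, and for Col5a3, by -0.96, both past the adjusted threshold of edgeR's test of that difference. The TLS effect differed between tissues for Col27a1 (F = 5.71), Col6a5 (F = 5.50) and Col5a1 (F = 5.47), and for none of these with the animal as a replicate block. In liver Col6a5 had too few counts to be tested alone.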

How the results depend on the processing

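Across the settings named in the processing section, counts of called members stayed within 1.5 times the reported count in 362 cases and moved further in 50, which follow with DESeq2 first. DESeq2 called 2 members for TLS against control in cortex, 1 in kidney and 5 in liver, 3 for control against time-0 in kidney, 1 in liver and 1 in WAT, 1 for TLS against time-0 in WAT, and, for the sex difference of the TLS effect, 4 in cortex and 1 in kidney. In cortex it called 8.24% of all genes for TLS against control and 8.01% for the sex difference of the TLS effect. With the nuclear RNA share as covariate the counts were 0 for TLS against control and 2 for TLS against time-0 in cortex, 2 for control against time-0 in kidney and 1 for TLS against time-0 in WAT. Of all genes, 0.012%, 5.21%, 0.625% and 0.512% were called in those fits, in that order. With the same covariate, the 1 for TLS against control in liver was Col4a1 in place of Col1a1. Under it Col16a1 (0.0904), Col6a2 (0.0709) and Col7a1 (0.0392) changed sign in TLS against time-0 cortex. With 4 animals a group, TLS against control gave 0 in F and 6 in M cortex, 1 in F kidney, and 0 in F and in M liver. Of all genes, 20.4% were called in M cortex and 0.293% in F kidney. Only the 2 groups gave 4 in kidney and 3 in liver for control against time-0 and 0 in liver for TLS against control, which was also 0 with no sex covariate. No filter gave 2 for the sex difference of the TLS effect in liver, and the share of all genes called in that fit is not given here. With the animal as replicate block the tissue difference held 0 members. Chosen after seeing the data were the nuclear share in the sex-crossed cortex fit, with 0, and WAT without 5 libraries, with 2 for control against time-0. The cause of these changes was not tested.

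Leaving out 1 library at a time gave 1 to 4 members for TLS against control in cortex (4 without control D215), 0 to 5 in liver (5 without TLS B23B) and 0 in kidney and WAT, 11 to 15 for control against time-0 in cortex, 0 to 3 in kidney (3 without TLS A5DA) and 0 to 1 in WAT (1 without time-0 animal 6), and 17 to 20 for TLS against time-0 in cortex. Shares of all genes called are not given for these refits. Of the members called, 1189 refits kept the call, 97 lost it and 3 reversed. Liver, with as few as 4031533 counts in a library, had the lowest recovery of simulated 2-fold changes (49%).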
